A study of Arabidopsis thaliana with 12 samples.

Results

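The time course of Col-0, the reference accession of Arabidopsis thaliana, was followed between 9 h and 18 h of high light. It comprised 6 of the 12 leaf RNA libraries of the study, 3 replicates at 9 h and 3 at 18 h, chosen by their labels. The labels do not say that replicates were separate plants, so p-values measure the spread between these samples, which may be technical. The other 6 libraries came from tpt-2, mutated in the TPT gene, whose product exports triose phosphates from the chloroplast, at the same times. Plants of both genotypes grew on soil for 21 d with 10 h light days. As a night ended they were placed in 500 µmol photons m-2 s-1, with leaf harvests 9 h or 18 h later. The 9 h harvest thus fell inside the light period of the growth regime, and the 18 h harvest fell after its usual end, with the light kept on. Light duration and time of day changed together and cannot be told apart, and no library from before the shift or from growth light was analysed here. The genes described are those whose 6 Col-0 values averaged 1 FPKM or more, 17388 of 32833. FPKM is a fragment count scaled for transcript length and library size.

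As background, the plant clock is a loop of repressors that act in turn through the day. The MYB-like factors CCA1 and LHY are made around dawn, the PRR proteins follow through the day, and TOC1, GI and the evening complex of ELF3, ELF4 and LUX act towards dusk. Clock proteins bind short promoter motifs such as the evening element and the G-box, and through them time the genes of the light-harvesting antenna, of starch turnover and of flowering. Light beyond what photosynthesis can use makes leaves shrink their antenna, raise protective proteins and fill their vacuoles with anthocyanins, red flavonoid pigments made from phenylalanine. Leaf starch is built by day from surplus sugar and is broken down at night.

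The recovered depth was 12.3 to 14.3 M assigned fragments, apart from replicate 1 of Col-0 at 18 h, which had 25.7 M. On the log2(FPKM + 1) scale, Pearson's r across genes was 0.968 to 0.985 within the 9 h group, 0.988 to 0.991 within the 18 h group, and 0.949 to 0.955 between them. Col-0 replicate 3 at 9 h stood apart: 108 genes were at least 4-fold higher in it than in both other 9 h replicates, against 0 to 5 genes in each of the other 5 Col-0 libraries. Of these genes, 5 were in the jasmonate list, 3 in the heat shock list, 1 in the salicylic acid list, and 13 in any list used here. The defensin PDF1.2 stood at 163 FPKM there against 0.946 and 1.12, and PAD3, a camalexin synthesis enzyme, at 47.5 against 0.396 and 0.638. Of these 108 genes, 3 were called between the time points, against 29.1% of all genes. They were chosen for a gap within the 9 h group, which widens their spread, so few calls follow from the choice. Counts and folds that moved by over 1.5 times without this library are given both ways.

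The labelled tissue was leaf: RBCS1A, a small subunit of Rubisco, stood at 18985, 18152 and 18696 FPKM at 9 h and 22409.8, 22618 and 21742 FPKM at 18 h, and the flower genes AG, AP1, AP3 and SEP3 and the root genes CASP1 and COBL9 were below the filter. The summed level of the 4 root genes was 153 to 201 FPKM at 9 h and 278 to 329 FPKM at 18 h, nearly all of it PYK10, a beta-glucosidase of endoplasmic reticulum bodies. That of the 5 epidermis and trichome genes was 285 to 300.3 FPKM at 9 h and 206 to 227 FPKM at 18 h, that of the 5 guard cell genes was 29.9 to 39.8 FPKM at 9 h and 27.9 to 31.2 FPKM at 18 h, that of the 3 phloem genes was 126 to 166 FPKM at 9 h and 140.1 to 164 FPKM at 18 h, and that of the 6 flower and meristem genes was 2.82 to 4.06 FPKM at 9 h and 5.004 to 5.99 FPKM at 18 h. The part of such shifts in the results was not tested, and in whole leaves fewer cells of a type and less RNA per cell cannot be told apart. TPT, the gene mutated in tpt-2, stood in Col-0 at 448, 328 and 405 FPKM at 9 h and 465, 436 and 406 FPKM at 18 h, against 2.52 to 3.85 FPKM in the tpt-2 libraries.

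Between 9 h and 18 h, 5063 of 17388 genes (29.1%) were called in Col-0, at an adjusted p under 0.05 in limma with Benjamini-Hochberg adjustment over all genes tested. 2322 genes (13.4%) rose and 2741 (15.8%) fell. A change of at least 2-fold on the log2(FPKM + 1) scale was reached by 769 genes (4.42%), of which 432 (2.48%) rose and 337 (1.94%) fell. The 3 values of each time point did not overlap in 43.9% of all genes tested. Over all genes the log2 fold change had a median of -0.01 and quartiles of -0.23 and 0.20. Without replicate 3 at 9 h, 4861 genes were called, 4314 of them the same, and 536 rose and 392 fell at least 2-fold.

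**Figure D1:**
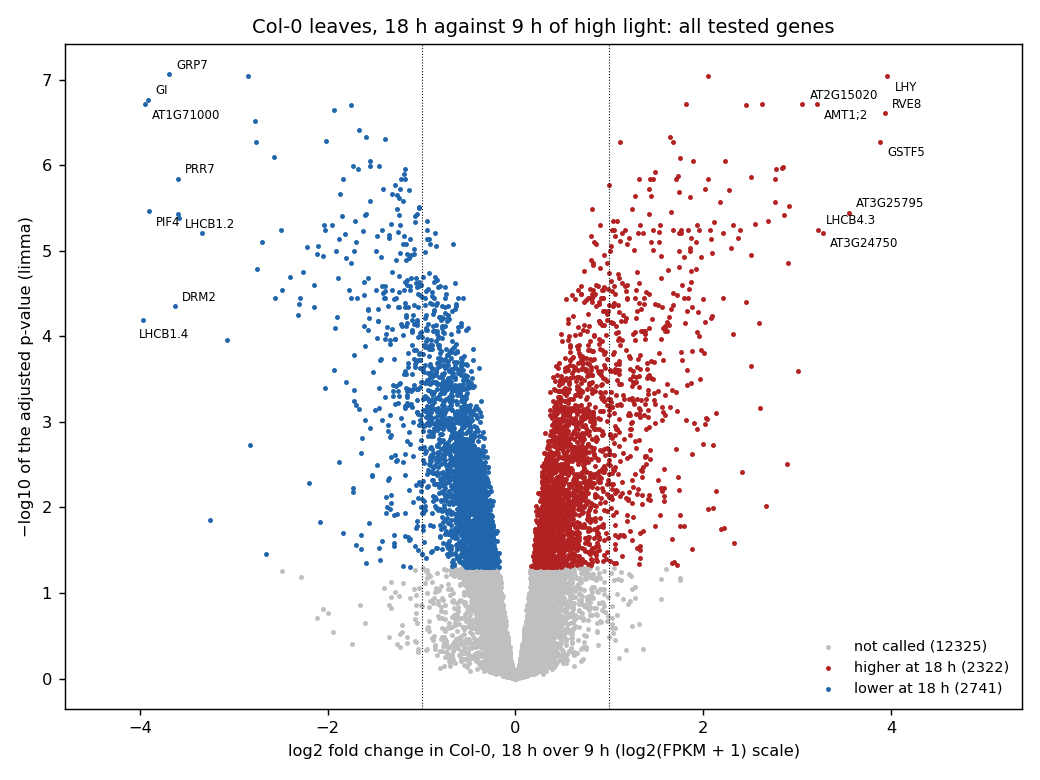
Each point is 1 of 17388 genes tested in Col-0, with the log2 fold change of 18 h over 9 h on the x axis and −log10 of the adjusted p on the y axis. The 2322 genes that rose are red, the 2741 that fell are blue, dotted lines mark 2-fold, and the 16 largest changes are named: LHY and RVE8 lie farthest right, LHCB1.4, AT1G71000 and GI farthest left.

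Apart from clock and antenna genes, described next, the largest rises belonged to genes of mixed function. GSTF5, a glutathione S-transferase gene (chromosome 1, 662963 to 664290, TAIR10.1), stood at 0.888, 0.459 and 1.88 FPKM at 9 h and 31.1, 26.6 and 27.9 FPKM at 18 h (log2 fold change 3.88 ± 0.22 (SE), adjusted p = 5.33e-07). AMT1;2, an ammonium transporter gene, rose from 6.14, 6.39 and 7.40 to 71.6, 73.3 and 63.9 FPKM (log2 fold change 3.21, adjusted p = 1.93e-07). The groups did not overlap in either, as the rule that chose the largest changes required. Genes of unknown function were also among the 8 largest rises: AT2G15020 (log2 fold change 3.05), AT3G24750 (3.27) and the RNA gene AT3G25795 (3.55).

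Among the largest falls, GRP7, which encodes a glycine-rich RNA-binding protein and is itself clock-controlled, went from 6235, 6863 and 5077 FPKM to 488, 493 and 422 FPKM (log2 fold change -3.68 ± 0.14 (SE), adjusted p = 8.62e-08). It was the most abundant of them, and its 9 h mean was 12.95 times its 18 h mean. AT1G71000, annotated as a DnaJ-domain chaperone, stood at 16.9, 19.6 and 20.9 FPKM at 9 h and 0.261, 0.141 and 0.540 FPKM at 18 h (log2 fold change -3.94, adjusted p = 1.93e-07). DRM2 (AT2G33830), a dormancy-associated gene used as a marker of low sugar, stood at 59.7, 50.6 and 29.98 FPKM at 9 h and 2.35, 3.59 and 2.33 FPKM at 18 h (log2 fold change -3.63, adjusted p = 4.46e-05). All 16 largest changes had separate groups by the rule that chose them, so this separation is no result.

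Clock genes were among the largest changes. Of 14 listed morning genes, 13 were tested, 6 rose and 5 fell, 6 and 4 of them at least 2-fold. Among all genes, 13.4% rose and 15.8% fell, 2.48% and 1.94% at least 2-fold. LHY, the dawn MYB-like repressor, stood at 0.0586, 0.0909 and 0.108 FPKM at 9 h and 14.7, 14.3 and 19.2 FPKM at 18 h (log2 fold change 3.96 ± 0.16 (SE), adjusted p = 9.10e-08). Its 9 h values rest on 2, 3 and 4 fragments against 1008, 517 and 635 at 18 h, so no ratio is given. CCA1, its partner, was at 0.274, 0.531 and 0.442 FPKM at 9 h and 3.63, 2.68 and 3.28 FPKM at 18 h, a smaller rise to a lower level (log2 fold change 1.57, adjusted p = 0.000665). Both genes were near 0 at 9 h and above it in every 18 h library.

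Of the related REVEILLE genes, 4 rose and 1 fell. RVE8, an activator of evening genes, went from 0.387, 0.534 and 0.397 to 21.2, 20.1 and 21.7 FPKM (log2 fold change 3.94, adjusted p = 2.45e-07). RVE1, a regulator of auxin synthesis, was at 0.283, 0.0836 and 0.149 FPKM at 9 h and 6.49, 6.71 and 7.96 FPKM at 18 h (log2 fold change 2.78, adjusted p = 1.09e-06), with 7, 2 and 4 fragments at 9 h. RVE2 was already expressed at 9 h and went from 36.7, 37.01 and 38.5 to 155, 156 and 164 FPKM (log2 fold change 2.05, adjusted p = 9.10e-08). RVE4 rose from 18.001, 16.7 and 18.9 to 42.2, 41.3 and 42.6 FPKM (log2 fold change 1.19, adjusted p = 8.41e-06), while RVE7 fell (log2 fold change -1.33, adjusted p = 0.00148). Of the 64-base stretches of RVE7, 46.3% were also found in transcripts of other genes. AT5G52660, a homeodomain-like gene of the same list, did not pass the test (log2 fold change 0.13, adjusted p = 0.552). The groups overlapped in none of the 6 morning genes that rose, which the choice of the largest changes required for LHY and RVE8.

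PRR7, a day-phase repressor of CCA1 and LHY, moved the other way and stood at 36.3, 37.1 and 35.3 FPKM at 9 h and 3.11, 2.01 and 1.38 FPKM at 18 h (log2 fold change -3.59 ± 0.24 (SE), adjusted p = 1.44e-06). PRR9, its earlier relative, missed the filter with 1.07, 1.85 and 1.28 FPKM at 9 h and 0.0198, 0.0375 and 0 FPKM at 18 h. LNK genes, coactivators that work with RVE8, fell in 3 of 4 cases. LNK1 went from 22.2, 22.2 and 19.9 to 4.97, 2.42 and 2.71 FPKM (log2 fold change -2.40, adjusted p = 2.00e-05). LNK4 fell by 1.33 on the log2 scale (adjusted p = 0.00141) and LNK3 by 0.99 (adjusted p = 0.0166, lost under 3 of 14 alternatives, among them leaving out 9 h replicate 3 or 18 h replicate 2 or 3). LNK2 did not pass (log2 fold change 0.42, adjusted p = 0.297).

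Of the 13 day and evening genes, all tested, 8 fell and 3 rose, against 15.8% and 13.4% of all genes. The median log2 fold change was -1.26, against -0.01 over all genes. GI, which stabilises the blue-light receptor ZTL and promotes flowering, stood at 48.7, 56.7 and 43.8 FPKM at 9 h and 3.49, 2.18 and 1.63 FPKM at 18 h (log2 fold change -3.91 ± 0.18 (SE), adjusted p = 1.71e-07). FKF1, a blue-light receptor that works with GI in daylength measurement, went from 39.6, 43.2 and 29.8 to 5.07, 4.84 and 3.98 FPKM (log2 fold change -2.76, adjusted p = 5.33e-07). Both were lower in every 18 h library than in any 9 h library, which the choice of the largest changes required for GI.

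PRR5 stood at 28.5, 26.2 and 24.5 FPKM at 9 h and 5.27, 6.03 and 5.97 FPKM at 18 h (log2 fold change -2.02, adjusted p = 5.14e-07), PRR3 fell by 1.48 on the log2 scale (adjusted p = 2.90e-05), and TOC1, the evening repressor of CCA1 and LHY, went from 52.4, 58.8 and 53.6 to 31.5, 28.5 and 25.99 FPKM (log2 fold change -0.92, adjusted p = 7.28e-06). Within the evening complex, ELF4 went from 217, 252 and 187 to 60.6, 60.97 and 63.5 FPKM (log2 fold change -1.80, adjusted p = 1.22e-05) and LUX from 46.7, 43.5 and 45.3 to 20.9, 16.7 and 17.55 FPKM (log2 fold change -1.26, adjusted p = 3.26e-06). ELF3 rose slightly, from 25.9, 24.7 and 26.8 to 31.7, 27.7 and 31.2 FPKM (log2 fold change 0.22, adjusted p = 0.0480), and lost its call under 8 of 15 alternatives, among them leaving out any 9 h replicate or 18 h replicate 1 or 3. CHE, a TCP factor that represses CCA1, fell (log2 fold change -1.43). ZTL (0.34) and TZP (0.52) rose less than 2-fold, and BOA (adjusted p = 0.0786) and LKP2 (adjusted p = 0.202) did not pass.

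**Figure D2:**
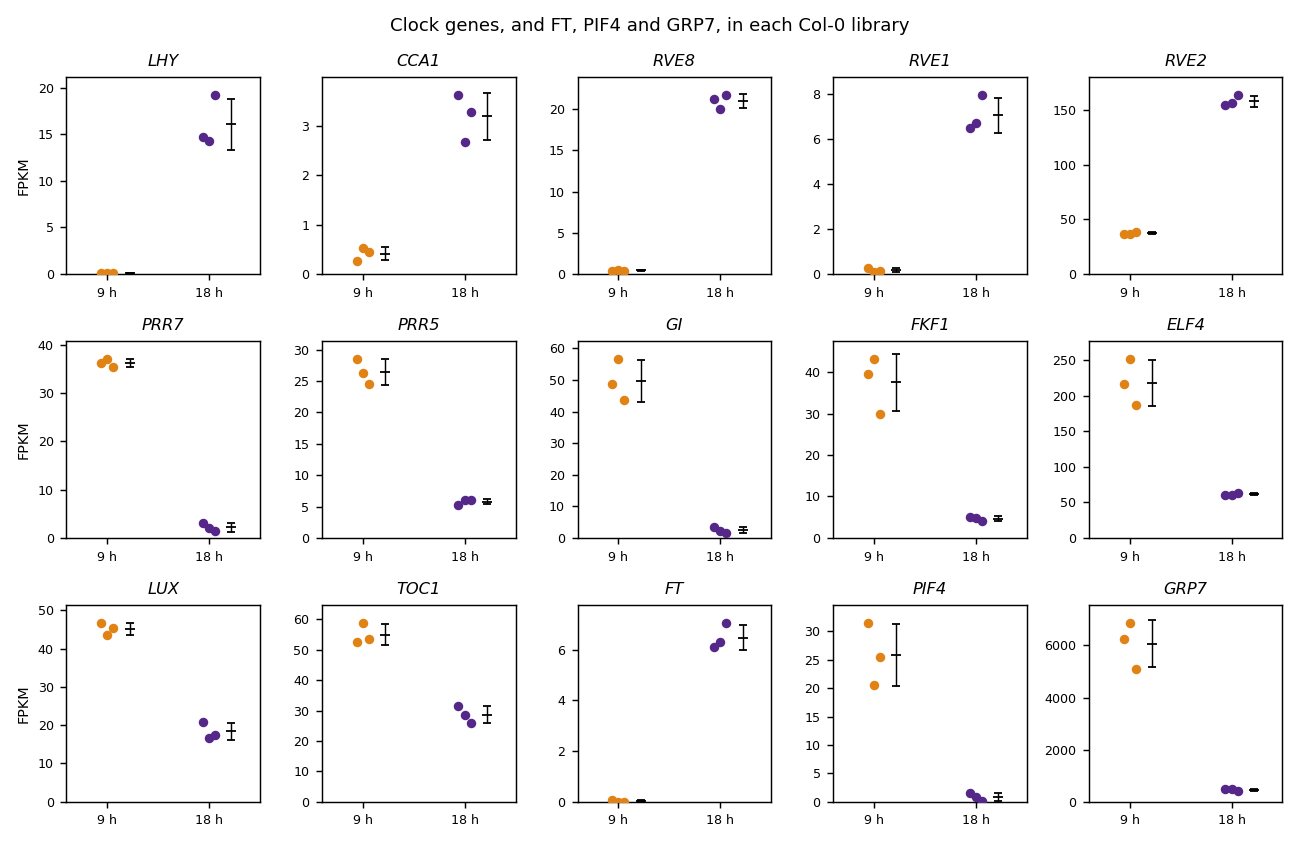
Each panel gives the FPKM of 1 gene in the 3 Col-0 libraries at 9 h (orange) and the 3 at 18 h (purple), from 0, with the mean and SD as a black bar beside them. LHY, CCA1, RVE8, RVE1, RVE2 and FT are higher in every 18 h library, and the other 9 genes shown are lower in every 18 h library.

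The promoters of clock genes that changed are shown for 2 motifs, the G-box CACGTG and the evening element AAAATATCT, searched on both strands, with the matches in capitals. LHY, PRR7 and RVE1 are shown since they had, with RVE8, the largest changes among called clock genes with either motif between 250 bases before and 50 bases after the annotated start. The G-box of RVE8 lay beyond the 250 bases before the start and its promoter is not shown. FKF1 and PRR5, the largest changes with an evening element, were added after their values were seen. Each sequence is the 250 bases before the start, 5′ to 3′ on the gene's strand, from the RefSeq TAIR10.1 genome: LHY, chr1:37872-38121, minus strand; PRR7, chr5:642031-642280, minus strand; RVE1, chr5:5692993-5693242, minus strand; FKF1, chr1:25508389-25508638, plus strand; PRR5, chr5:8358547-8358796, minus strand. FKF1 held another evening element that starts with the gene and is not shown. The G-box began 80, 201 and 111 bases before the start in LHY, PRR7 and RVE1, and the evening element, on the other strand, 186 and 187 bases before it in FKF1 and PRR5.
LHY: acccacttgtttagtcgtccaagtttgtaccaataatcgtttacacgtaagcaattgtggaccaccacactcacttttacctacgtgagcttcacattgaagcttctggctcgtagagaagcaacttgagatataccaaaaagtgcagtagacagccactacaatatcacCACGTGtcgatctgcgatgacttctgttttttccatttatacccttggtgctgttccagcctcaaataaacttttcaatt
PRR7: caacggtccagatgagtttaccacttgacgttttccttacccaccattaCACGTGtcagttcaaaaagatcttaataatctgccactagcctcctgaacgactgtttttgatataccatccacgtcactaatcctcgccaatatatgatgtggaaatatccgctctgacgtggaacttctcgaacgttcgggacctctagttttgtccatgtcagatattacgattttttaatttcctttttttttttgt
RVE1: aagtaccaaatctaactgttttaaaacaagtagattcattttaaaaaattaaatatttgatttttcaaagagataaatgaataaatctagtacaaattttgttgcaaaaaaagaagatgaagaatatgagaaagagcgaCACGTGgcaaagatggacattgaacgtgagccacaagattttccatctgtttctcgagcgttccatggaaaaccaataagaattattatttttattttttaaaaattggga
FKF1: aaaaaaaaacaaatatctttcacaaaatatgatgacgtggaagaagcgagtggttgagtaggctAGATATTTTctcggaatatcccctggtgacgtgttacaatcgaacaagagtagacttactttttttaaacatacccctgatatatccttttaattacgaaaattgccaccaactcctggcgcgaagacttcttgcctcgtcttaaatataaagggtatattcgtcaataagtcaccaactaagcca
PRR5: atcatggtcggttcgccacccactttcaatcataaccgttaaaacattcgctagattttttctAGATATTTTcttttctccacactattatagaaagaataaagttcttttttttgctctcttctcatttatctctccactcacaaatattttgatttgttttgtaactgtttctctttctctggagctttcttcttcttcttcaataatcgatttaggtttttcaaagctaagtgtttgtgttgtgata

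Over the 300-base windows of all changed genes, the evening element stood in 52 of 336, 15.5% (95% Wilson interval 12.001% to 19.7%) of the genes that fell at least 2-fold. It stood in 5 of 432, 1.16% (95% Wilson interval 0.495% to 2.68%) of those that rose at least 2-fold, and in 3.11% of all tested and 2.64% of all annotated promoters. The G-box stood in 15.97% of the promoters of risen genes and 11.6% of fallen genes, against 8.95% of all tested. The telo-box AAACCCTA, a motif of ribosomal protein genes, was at 11.9% in fallen and 1.85% in risen genes against 5.88%. In the 250 bases before the start alone it was at 4.46% in fallen and 1.39% in risen genes against 3.85%, and the evening element at 11.9% and 1.16% against 2.56%. The site II element GGCCCA stood in 9.26% of risen and 19.6% of fallen genes against 20.2%, the CCA1-binding site AAAAATCT in 8.33% and 11.9% against 8.23%, and the I-box GATAAG in 15.7% and 15.5% against 14.8%. The G-box reads the same on both strands, and no motif contains another. Of 22 called clock genes, 6 held an evening element (5 of 13 that fell and 1 of 9 that rose) and 10 held a G-box (4 that fell and 6 that rose). A match describes the letters of a window, not binding.

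Genes known to be timed by the clock and daylength also changed. FT, which encodes the mobile flowering signal, stood at 0.0855, 0 and 0 FPKM at 9 h and 6.09, 6.29 and 7.06 FPKM at 18 h (log2 fold change 2.86 ± 0.22 (SE), adjusted p = 3.82e-06). It rested on 1, 0 and 0 fragments at 9 h, so the fitted value depends on the pseudocount, and on 143, 78 and 80 at 18 h. CDF3, a DOF repressor of flowering genes, fell from 27.2, 27.8 and 20.03 to 5.88, 4.70 and 3.27 FPKM (log2 fold change -2.22, adjusted p = 9.04e-06), CDF2 rose to a mean of 2.67 FPKM from 0.782 (log2 fold change 1.04, adjusted p = 0.000160), and CO, the activator of FT, was below the filter at every time. SOC1, a flowering integrator, fell (log2 fold change -0.58).

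Of 22 light signalling genes tested, 9 rose and 6 fell, against 13.4% and 15.8% of all genes. PIF4, a growth-promoting phytochrome-interacting factor, stood at 31.5, 20.6 and 25.5 FPKM at 9 h and 1.60, 0.831 and 0.158 FPKM at 18 h (log2 fold change -3.91 ± 0.29 (SE), adjusted p = 3.45e-06), and PIF5 went from 25.9, 22.2 and 21.9 to 5.86, 4.73 and 4.32 FPKM (log2 fold change -2.03, adjusted p = 5.69e-06). PIF7 fell too (log2 fold change -0.88). BBX31, a B-box factor, went from 1.28, 1.62 and 1.38 to 11.96, 14.6 and 11.8 FPKM (log2 fold change 2.50, adjusted p = 1.12e-05), and RUP2 (1.48), RUP1 (1.02), SPA4 (1.31) and HYH (1.27, all log2 fold changes) followed. HY5, the central activator of light-induced genes, rose less (log2 fold change 0.51, adjusted p = 0.0246). The B-box factors BBX22 (-1.55) and BBX24 (-1.01) fell.

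Of 13 cold and abscisic acid response genes tested, 7 fell and 0 rose, against 15.8% and 13.4% of all genes. Their median log2 fold change was -1.56. COR27, a clock-regulated cold gene, went from 74.7, 80.5 and 62.1 to 7.90, 10.7 and 9.05 FPKM (log2 fold change -2.85, adjusted p = 9.10e-08), and CBF3, a cold-response activator, from 10.2, 10.999 and 5.50 to 0.840, 0.796 and 1.22 FPKM (log2 fold change -2.30, adjusted p = 3.58e-05). COR15B, a chloroplast cryoprotective protein gene, stood at 832, 1136 and 439 FPKM at 9 h and 68.1, 75.5 and 90.01 FPKM at 18 h (log2 fold change -3.25 ± 0.86 (SE), adjusted p = 0.0140). Its 9 h libraries spread widely, 29.5% of its exon length lies under an antisense gene, and its call was lost without replicate 2 at 9 h. RD29A, a drought and cold gene, fell as well, with 135, 259 and 55.5 FPKM at 9 h and 15.8, 17.8 and 24.04 FPKM at 18 h (adjusted p = 0.0354), and lost its call under 7 of 15 alternatives, among them leaving out 9 h replicate 1 or 2 or any 18 h replicate. Without 9 h replicate 2, 4 fell, and without replicate 3, 1 member rose. With single libraries left out, 4 to 7 members fell.

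Of 20 antenna genes tested, 11 fell and 4 rose, against 15.8% and 13.4% of all genes, with a median log2 fold change of -0.85. Their summed level was 19274 to 24470.0 FPKM at 9 h and 9220.3 to 12075 FPKM at 18 h. Genes of the major trimeric antenna had the largest falls. LHCB1.2 (CAB3) stood at 1453, 1045 and 1094 FPKM at 9 h and 151, 90.8 and 67.1 FPKM at 18 h (log2 fold change -3.59 ± 0.27 (SE), adjusted p = 3.67e-06), and LHCB1.1 (CAB2) went from 709, 668 and 480.4 to 87.5, 59.8 and 39.9 FPKM (log2 fold change -3.34, adjusted p = 6.25e-06). The most abundant copy, LHCB1.3 (CAB1), fell less, from 8241, 7287 and 6548 to 2926, 2608 and 2391 FPKM (log2 fold change -1.48, adjusted p = 6.66e-06). In every antenna gene named so far, all 18 h libraries were below all 9 h libraries. The rule that chose the largest changes required this of any gene among them.

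The LHCB1 and LHCB2 copies resemble each other, so reads may have been split between them. Of the 64-base stretches, 22.96% of LHCB2.2, 13.5% of LHCB1.1, 9.37% of LHCB1.4 and 5.69% of LHCB1.2 occur in transcripts of other genes. The fall of a single copy is therefore uncertain. LHCB1.4 (LHB1B1) had the largest fitted fall of the whole test, from 77.3, 31.0 and 58.8 to 4.57, 2.53 and 0.985 FPKM (log2 fold change -3.97, adjusted p = 6.49e-05). LHCB1.5, whose exons lie wholly under an antisense gene, was listed at 0 in every library. LHCB3 (-2.31), LHCB2.2 (-3.07) and the photosystem I antenna gene LHCA1 (-2.27, all log2 fold changes) fell as well. With 1 Col-0 library left out, the antenna median lay between -1.14, without the deeper replicate 1 at 18 h, and -0.70, without replicate 3 at 18 h.

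LHCB4.3, a minor antenna gene of photosystem II known to be light-induced, went the other way and stood at 45.6, 36.3 and 73.9 FPKM at 9 h and 562, 485 and 388 FPKM at 18 h (log2 fold change 3.23 ± 0.26 (SE), adjusted p = 5.69e-06). Its lowest 18 h value was above 73.9 FPKM, its highest 9 h value, as the rule that chose the largest changes required. LHCB7 (0.67), LHCA6 (0.38) and LHCA5 (0.31), low-abundance antenna genes, rose by less than 2-fold.

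Chlorophyll synthesis genes moved little and mostly upward: 10 of 17 rose and 1 fell, with a median of 0.24. HEMA1, which encodes the first committed enzyme of the pathway, went from 70.5, 76.5 and 79.3 to 122, 129.6 and 131 FPKM (log2 fold change 0.75, adjusted p = 3.76e-05). The single fall was that of PORB, a light-dependent protochlorophyllide reductase, from 507, 402 and 387 to 149.9, 146 and 130.5 FPKM (log2 fold change -1.59, adjusted p = 3.67e-06). In the Calvin cycle, 15 of 22 genes rose and 0 fell (median 0.32), against 13.4% higher among all genes. With 1 Col-0 library left out, 10 to 14 rose and 0 fell. RCA, the Rubisco activase gene, was the only 2-fold rise of the list, from 2655, 1973 and 2505 to 5896, 5827 and 5354 FPKM (log2 fold change 1.27, adjusted p = 8.96e-05). RBCS3B rose by 0.75 on the log2 scale, and the call of RBCS1A (log2 fold change 0.26, adjusted p = 0.0479) was lost under 13 of 15 alternatives, among them leaving out any 9 h replicate or any 18 h replicate.

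All 17 tested photorespiration genes passed the test, 15 upward and 2 downward (median 0.49), against 29.1% called among all genes. With 1 Col-0 library left out, 13 to 15 rose, and 1 fell without 9 h replicate 1 or 2 or 18 h replicate 2 or 3. The catalases, which remove hydrogen peroxide, exchanged rank. CAT2, the leaf peroxisomal form, stood at 92.6, 80.5 and 124 FPKM at 9 h and 675, 685 and 647 FPKM at 18 h (log2 fold change 2.77 ± 0.20 (SE), adjusted p = 2.71e-06). CAT3 stood at 725, 455 and 677 FPKM at 9 h and 230.3, 214 and 156 FPKM at 18 h (log2 fold change -1.62 ± 0.19 (SE), adjusted p = 7.63e-05). CAT3 was thus above CAT2 in FPKM, a length-scaled level, in every 9 h library and below it in every 18 h library. The glycine decarboxylase gene GLDP2 (0.98), the aminotransferase gene GGT1 (0.98) and the hydroxypyruvate reductase gene HPR1 (0.78) rose within 2-fold.

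**Figure D3:**
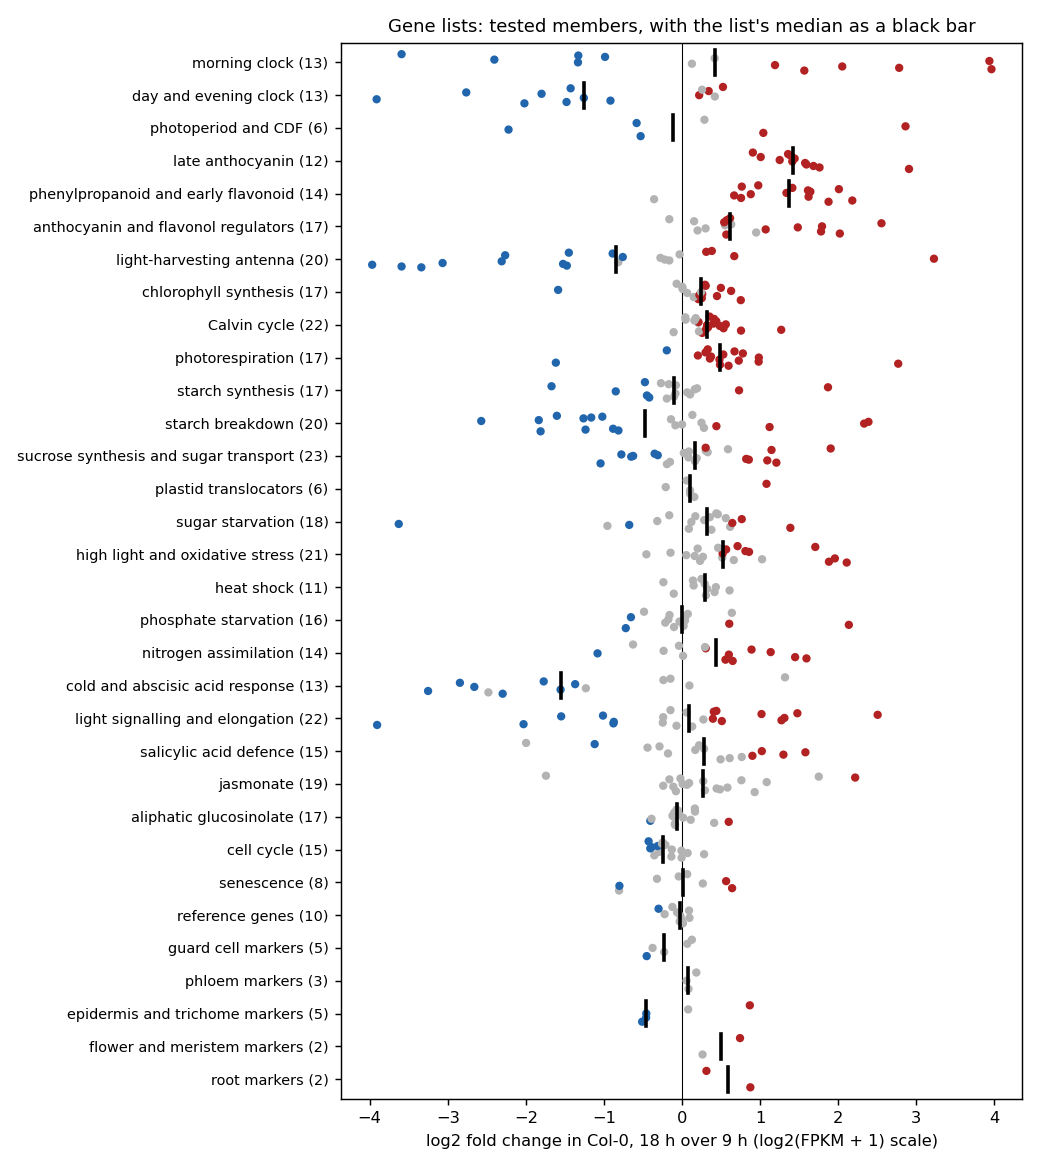
Each row is a gene list with the number of tested members in brackets, each point 1 member at its log2 fold change of 18 h over 9 h in Col-0, red where it rose, blue where it fell and grey where it was not called. Black bars mark the list medians, which run from -1.56 for the cold list to 1.43 for the late anthocyanin list, against -0.01 for all genes.

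Starch breakdown genes fell more often than they rose: 10 of 20 fell and 4 rose (median -0.48), against 15.8% lower among all genes. The same 10 genes fell with each Col-0 library left out in turn. AMY3, a plastid alpha-amylase gene, stood at 125, 129 and 121 FPKM at 9 h and 25.8, 18.9 and 16.9 FPKM at 18 h (log2 fold change -2.57 ± 0.15 (SE), adjusted p = 7.99e-07). GWD1, the glucan, water dikinase that opens the granule to attack, went from 193, 237 and 164 to 57.3, 57.9 and 50.3 FPKM (log2 fold change -1.81, adjusted p = 6.36e-06), and ISA3, a debranching enzyme gene, from 97.3, 126 and 88.1 to 27.4, 30.3 and 26.5 FPKM (log2 fold change -1.84, adjusted p = 1.44e-06). The groups did not overlap in any of these.

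The phosphorylase genes PHS2 (-1.60) and PHS1 (-1.02), the glucanotransferase genes DPE1 (-1.26) and DPE2 (-1.16) and the glucan phosphatase gene SEX4 (-1.24, all log2 fold changes) also fell. The beta-amylase genes did not share that direction. BAM9, which lacks catalytic activity, went from 3.50, 1.67 and 2.83 to 19.4, 15.9 and 18.1 FPKM (log2 fold change 2.39, adjusted p = 5.69e-06), and BAM1 rose by 1.12. BAM5 rose in the fit from 3.92, 8.44 and 27.8 to 64.1, 60.8 and 41.3 FPKM (log2 fold change 2.33, adjusted p = 0.0258), with its highest 9 h value in replicate 3, and lost its call under 4 of 15 alternatives, among them leaving out 9 h replicate 1 or 2 or 18 h replicate 1 or 2. Without 9 h replicate 3 it rose more (log2 fold change 3.02, adjusted p = 0.00549). BAM3, the main catalytic plastid form, did not pass, with 427, 569 and 365 FPKM at 9 h and 415, 466 and 384 FPKM at 18 h (log2 fold change -0.09, adjusted p = 0.765). Its groups overlapped.

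Of 17 starch synthesis genes, 5 fell and 2 rose, against 15.8% and 13.4% of all genes. Without 18 h replicate 3, 4 fell and 4 rose. GBSS1, the granule-bound synthase that makes amylose and a known target of CCA1 and LHY, went from 10.3, 23.2 and 20.1 to 57.8, 77.2 and 60.1 FPKM (log2 fold change 1.87, adjusted p = 0.000352). SBE2.1, a branching enzyme gene, fell from 145, 155 and 116 to 43.9, 43.999 and 39.6 FPKM (log2 fold change -1.67, adjusted p = 1.12e-06), and SS1, a synthase gene, by 0.85 on the log2 scale. The genes of the ADP-glucose step stayed within 2-fold.

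Among 23 sucrose synthesis and sugar transport genes, 7 rose and 6 fell, against 13.4% and 15.8% of all genes. The 2 UDP-glucose pyrophosphorylase genes moved apart: UGP1 went from 198, 237 and 153 to 89.996, 99.8 and 89.5 FPKM (log2 fold change -1.04, adjusted p = 0.000414) and UGP2 from 33.6, 29.9 and 29.1 to 74.5, 75.6 and 67.5 FPKM (log2 fold change 1.21, adjusted p = 7.07e-06). CWINV1, a cell wall invertase gene, rose from 4.37, 5.37 and 10.6 to 24.8, 23.5 and 31.9 FPKM (log2 fold change 1.90, adjusted p = 0.00103). The sucrose exporters SWEET11 (-0.65) and SWEET12 (-0.63) fell within 2-fold, and SUC2, the phloem sucrose loader, did not pass (adjusted p = 0.630). Of 6 plastid translocator genes, PPT2, a phosphoenolpyruvate carrier gene, was the only one called (log2 fold change 1.08, adjusted p = 0.000324). GPT2, a glucose 6-phosphate carrier gene, stood at 21.9, 50.7 and 53.1 FPKM at 9 h and 34.1, 49.3 and 43.8 FPKM at 18 h, with overlapping groups (adjusted p = 0.846).

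Of 18 sugar starvation markers tested, 3 rose and 2 fell, near the 29.1% called among all genes. DRM2, described above, was the largest change. Without 9 h replicate 3, 5 rose. DIN9 rose from a mean of 2.19 to 7.05 FPKM (log2 fold change 1.39, adjusted p = 0.00249). DIN1, DIN2 and DIN6, dark-induced genes, were below the filter.

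Of 14 phenylpropanoid and early flavonoid genes tested, 13 rose and 0 fell (median 1.37), against 13.4% and 15.8% of all genes. PAL2, which encodes phenylalanine ammonia-lyase, the entry enzyme, went from 53.7, 84.7 and 76.3 to 295, 357 and 318 FPKM (log2 fold change 2.18, adjusted p = 2.68e-06). CHS, chalcone synthase, which makes the flavonoid skeleton, stood at 667, 928 and 751 FPKM at 9 h and 2258, 2416 and 2599.7 FPKM at 18 h (log2 fold change 1.64 ± 0.26 (SE), adjusted p = 0.000678). CHIL, a chalcone isomerase-like partner of CHS, rose by 2.01 on the log2 scale. In all 14 tested members the groups did not overlap, against 43.9% of all genes. F3H was below the filter, and 93.8% of its exon length lies under an antisense gene.

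All 12 late anthocyanin genes rose, 11 of them at least 2-fold (median 1.43), against 13.4% and 2.48% of all genes. DFR, dihydroflavonol reductase, stood at 177, 165 and 199.8 FPKM at 9 h and 577, 610.1 and 654 FPKM at 18 h (log2 fold change 1.76 ± 0.22 (SE), adjusted p = 0.000151). F3'H (TT7), the flavonoid hydroxylase, rose most, from 41.2, 49.8 and 66.8 to 371, 394 and 416 FPKM (log2 fold change 2.91, adjusted p = 1.39e-05). LDOX, which makes the coloured anthocyanidin, went from 184, 175 and 206 to 577, 584 and 659.9 FPKM (log2 fold change 1.68, adjusted p = 3.12e-05), and TT19, a glutathione S-transferase needed for vacuolar storage, rose by 1.39. Their summed level was 1038 to 1159.5 FPKM at 9 h and 3174 to 3651 FPKM at 18 h.

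The regulators rose less evenly, 10 of 17 with 0 falls, while among all genes 13.4% rose and 15.8% fell. PAP2 (MYB90), an activator of anthocyanin genes, went from 6.01, 10.02 and 8.07 to 30.8, 33.5 and 41.7 FPKM (log2 fold change 2.02, adjusted p = 0.00105). PAP1, its close relative, was already at 74.98, 101 and 94.99 FPKM at 9 h and reached 124, 138 and 138 FPKM (log2 fold change 0.57, adjusted p = 0.0395), a call lost under 6 of 15 alternatives, among them leaving out 9 h replicate 1 or 3 or any 18 h replicate. TT8, their bHLH partner, rose by 1.78, and the flavonol activators MYB12 (1.79) and MYB11 (1.48) rose from low levels. CPC, a single-repeat MYB that competes with the activators, rose from 2.46, 3.61 and 4.64 to 23.58, 24.3 and 28.3 FPKM (log2 fold change 2.55, adjusted p = 4.87e-06).

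**Figure D4:**
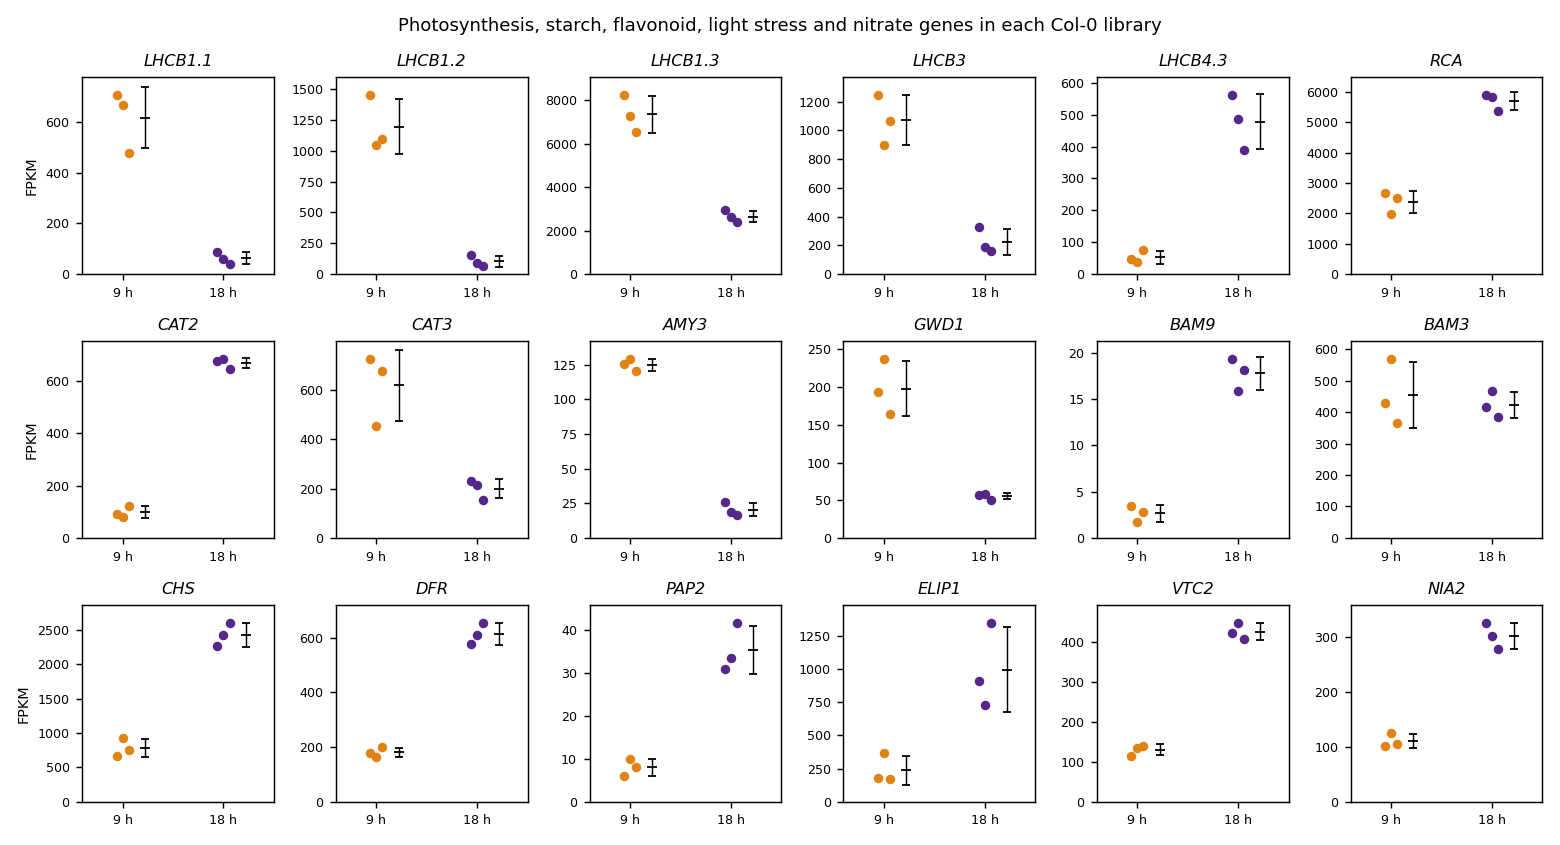
Each panel gives the FPKM of 1 gene in the 3 Col-0 libraries at 9 h (orange) and the 3 at 18 h (purple), from 0, with the mean and SD as a black bar. The LHCB1 copies, LHCB3, CAT3, AMY3 and GWD1 are lower in every 18 h library, BAM3 overlaps, and the other genes are higher in every 18 h library.

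Of 21 high light and oxidative stress genes tested, 10 rose and 0 fell (median 0.53), against 13.4% and 15.8% of all genes. Without replicate 3 at 9 h, 13 of them rose. ELIP1, an early light-induced protein of the thylakoid, stood at 176, 365 and 171 FPKM at 9 h and 907, 726 and 1348 FPKM at 18 h (log2 fold change 2.11 ± 0.39 (SE), adjusted p = 0.00186). VTC2, the enzyme that controls ascorbate synthesis, went from 115, 136 and 141 to 423, 449 and 407 FPKM (log2 fold change 1.71, adjusted p = 1.44e-06), and GPX7, a plastid peroxidase gene, from 11.8, 13.3 and 10.7 to 45.8, 44.6 and 57.9 FPKM (log2 fold change 1.96, adjusted p = 5.69e-06), with 43.9% of its exon length under an antisense gene. Groups did not overlap in these genes. Of 11 heat shock genes tested, 0 were called in limma, 0 passed an unadjusted p of 0.05 and 0 were called by voom on recovered fragments. Without replicate 3 at 9 h, 3 rose.

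Of 14 nitrogen assimilation genes, 8 rose and 1 fell, against 13.4% and 15.8% of all genes. The nitrate reductase genes rose: NIA2 went from 101, 125 and 105 to 326, 303 and 278 FPKM (log2 fold change 1.45, adjusted p = 2.26e-06) and NIA1 from 7.79, 7.47 and 7.37 to 30.5, 21.3 and 23.3 FPKM (log2 fold change 1.59, adjusted p = 7.54e-05). Cytosolic glutamine synthetase genes moved in opposite directions. GLN1;1 fell from 60.6, 65.9 and 64.3 to 30.2, 28.7 and 29.5 FPKM (log2 fold change -1.08, adjusted p = 7.13e-05), and GLN1;2 rose from 89.9, 67.7 and 84.4 to 176, 184 and 172 FPKM (log2 fold change 1.13, adjusted p = 2.35e-05). Of 16 phosphate starvation genes, 2 rose and 2 fell, near the 29.1% called among all genes. The falls, SPX1 and MGD3, were lost without 9 h replicate 1 or 2 or 18 h replicate 2 or 3. IPS1, a noncoding RNA that binds a phosphate microRNA, was the only 2-fold change among them, at 2.45, 0.747 and 2.93 FPKM at 9 h and 16.2, 12.1 and 7.89 FPKM at 18 h (log2 fold change 2.14, adjusted p = 0.00635), a call lost with a pseudocount of 0.1.

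Counts in the defence lists changed without replicate 3 at 9 h. Of 19 jasmonate genes tested, 1 rose and 0 fell, against 13.4% and 15.8% of all genes. Without that library 7 rose and the median went from 0.27 to 0.83. VSP1, a jasmonate-induced storage protein gene, stood at 65.2, 82.8 and 542 FPKM at 9 h and 839, 564 and 636 FPKM at 18 h (log2 fold change 2.22, adjusted p = 0.0175), and lost its call under 3 of 15 alternatives, among them leaving out 9 h replicate 1 or 2 or 18 h replicate 1. Without 9 h replicate 3 it rose more (log2 fold change 3.17, adjusted p = 3.10e-05). Of 15 salicylic acid genes tested, 4 rose and 1 fell, near the 29.1% called among all genes. Without 9 h replicate 3, 6 rose and 0 fell. PAD4, a lipase-like defence regulator, went from 3.09, 3.77 and 3.20 to 8.24, 11.5 and 9.52 FPKM (log2 fold change 1.298, adjusted p = 0.000536), and its partner EDS1 rose by 0.90. In both genes every 18 h library was above every 9 h library, replicate 3 included.

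The aliphatic glucosinolate list had 1 rise and 1 fall among 17 genes, the senescence list 2 rises and 1 fall among 8, and the cell cycle list 4 falls among 15, all within 2-fold. Among all genes 29.1% were called. The cell cycle falls numbered 1 without 18 h replicate 1 or 9 h replicate 1, and 2 without 18 h replicate 2. Of 10 reference genes often used for normalisation, 1 was called: AT5G60390, an elongation factor gene, fell by 0.30 on the log2 scale (adjusted p = 0.0158), lost under 3 of 15 alternatives, among them leaving out 9 h replicate 2 or 18 h replicate 1. Of 3 phloem markers 0 were called in limma, 0 passed an unadjusted p of 0.05 and 0 were called by voom on recovered fragments. The guard cell list had 1 fall among 5, KAT1 (-0.45). The epidermis list had 3 falls and 1 rise among 5, the root list 2 rises among 2 tested, PYK10 (0.87) and SHR (0.31, lost under 6 of 15 alternatives, among them leaving out 9 h replicate 1 or 3 or any 18 h replicate), and the flower and meristem list 1 rise among 2, KNAT1 (0.74), lost under 5 of 14 alternatives, among them leaving out 9 h replicate 2 or 3 or any 18 h replicate.

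Families were also read from the annotated product names. Of 274 genes named as ribosomal proteins without an organelle in the name, 160 (58.4%) fell and 24 (8.76%) rose, mostly by little: the median log2 fold change was -0.32 and 4 fell at least 2-fold. Their summed level was 68636, 73259 and 68043 FPKM at 9 h and 57122, 59083 and 65673 FPKM at 18 h, and the groups did not overlap. Over the alternatives and single libraries left out, the median lay between -0.39 and -0.27. In tpt-2 it was 0.01. The time effect differed between the genotypes in 34 of these 274 genes, against 4.81% of all genes. In 22 of the 34 the change was more positive in tpt-2, and in the rest more positive in Col-0. Of 213 pentatricopeptide repeat genes, organelle RNA-binding proteins, 50 (23.5%) fell and 12 (5.63%) rose. Of 89 histone genes 28 (31.5%) fell and 5 (5.62%) rose. Over all genes 15.8% fell and 13.4% rose. In both directions together, the pentatricopeptide repeat genes called were near the 29.1% of all genes.

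Some enzyme families, matched by product name only, had more rises than falls. Of 109 cytochrome P450 genes 28 rose and 11 fell, and of 74 UDP-glycosyltransferase genes 19 rose and 5 fell. Of 37 glutathione S-transferase genes 10 rose and 3 fell. Over all genes 13.4% rose and 15.8% fell, 29.1% together. The median log2 fold changes of these families were small, 0.19, 0.15 and 0.04 in that order. The pathways of their members were not told apart. Of 42 proteasome subunit genes 2 fell and 0 rose, and of 138 F-box genes 10 rose and 4 fell, both below the 29.1% called among all genes. Of 74 organelle-encoded genes tested 2 fell and 0 rose. Libraries were made from poly-A RNA, in which organelle transcripts are poorly kept.

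Whether the time effect of Col-0 differed from that of tpt-2 was tested as an interaction. The time effects share no libraries. Across all genes tested their log2 fold changes had a Pearson's r of 0.68 and a Spearman's rho of 0.54, over genes that are not independent replicates. In tpt-2, 4078 of the 17388 genes tested were called in either direction. Of the 432 genes that rose at least 2-fold in Col-0, 339 also rose in tpt-2 and 2 fell. Of the 337 that fell, 277 also fell and 1 rose. The difference was called for 837 genes (4.81%), 559 of which were called in Col-0. Among these, 169 had the same sign and a larger change in Col-0, 61 the same sign and a smaller one, and 329 the opposite sign, 96 with both time effects called.

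This count depended on single libraries. It was 294 without Col-0 replicate 1 at 18 h, 273 without replicate 2 and 543 without replicate 3, and 530 without Col-0 replicate 2 at 9 h. Without tpt-2 replicate 1 or 2 at 9 h it was 467 or 304, and without replicate 1 or 2 at 18 h 282 or 485. The share of positive differences was 51.0% and 39.8% after quantile normalization.

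The late anthocyanin genes had the smaller log2 fold change in Col-0 and the higher level. The difference was called in 9 of 12, against 4.81% of all genes, each time with the larger fold change in tpt-2. The median log2 fold change was 3.62 in tpt-2 against 1.43 in Col-0. DFR, at 4.25, 8.24 and 11.3 FPKM at 9 h and 254, 227 and 219 FPKM at 18 h in tpt-2, was below Col-0 at both times (difference of the time effects 3.04 on the log2 scale, adjusted p = 0.00110). LDOX (2.72, adjusted p = 0.000960) and AT4G14090, a UDP-glycosyltransferase gene (2.39, adjusted p = 0.00145), followed. In 12 of 12 genes every tpt-2 library was below every Col-0 library of the same time, at 9 h and at 18 h.

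In the other direction, GSTF5 rose less in tpt-2, to 2.59, 3.62 and 4.24 FPKM (difference -2.13, adjusted p = 0.00539), and DRM2 fell more there (difference -2.50, adjusted p = 0.0285). STP14, a sugar transporter gene, stood at 4.36, 2.56 and 3.88 FPKM at 9 h and 10.3, 10.7 and 10.1 FPKM at 18 h in Col-0 (log2 fold change 1.33, adjusted p = 0.000724) and at 11.8, 10.9 and 7.64 FPKM at 9 h and 3.88, 2.82 and 5.74 FPKM at 18 h in tpt-2, a difference of -2.46 (adjusted p = 0.00226). MES6, a methyl esterase gene, rose in Col-0 (log2 fold change 1.88, adjusted p = 0.000149) and had a log2 fold change of -0.34 in tpt-2 (adjusted p of the difference = 0.00645). AT3G47342, a small nucleolar RNA gene whose sequence occurs elsewhere too, fell in Col-0, lost its call under 2 of 14 alternatives, among them leaving out 9 h replicate 1, and is uncertain (difference 2.93). Among 26 clock genes the difference was called in 4, RVE1, RVE2, ELF3 and ZTL, against 4.81% of all genes. Each had the more positive change in Col-0. Whether these calls of the difference held with single libraries left out is not given here.

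**Figure D5:**
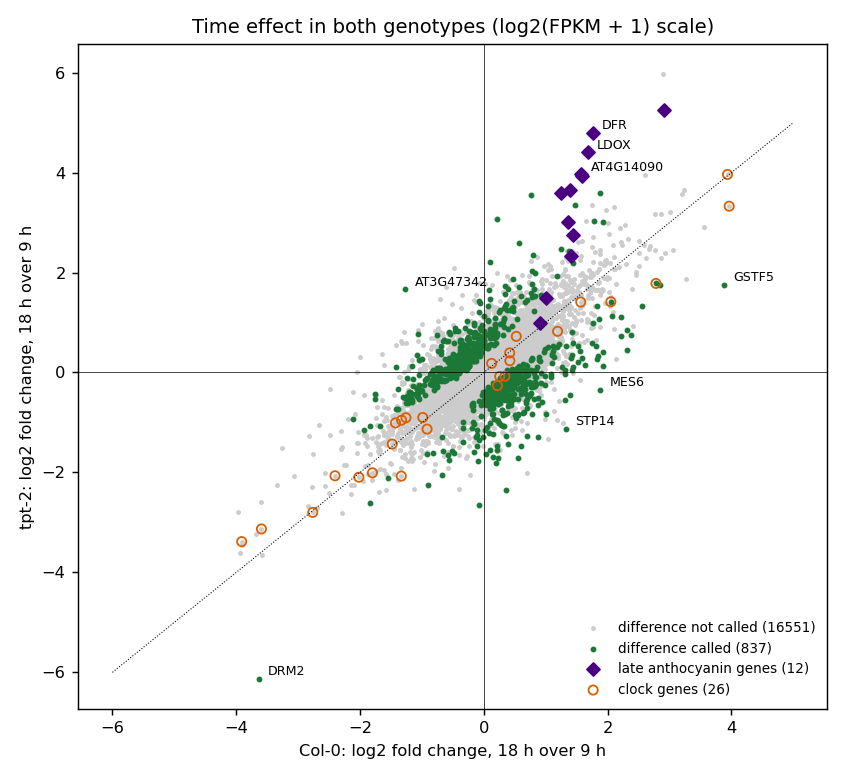
Each point is a gene, with its log2 fold change of 18 h over 9 h in Col-0 on the x axis and in tpt-2 on the y axis, and the dotted line marks equal changes. The 837 genes with a called difference are green, the clock genes are open orange circles, and the 12 late anthocyanin genes (purple diamonds) lie at positive values on both axes, most of them above the line.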

How the data were processed

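Leaf poly-A RNA was sequenced as directional libraries, per the labels' protocols. The authors deposited 1 table of FPKM values for 32833 genes and 12 libraries. The submitters' processing notes name CASAVA, HISAT2 2.0.5, featureCounts 1.5.0-p3, DESeq2 1.20.0 and the build TAIR10. Whether strand was used in counting is not given in the sources used here, so a gene cannot be told from an antisense partner. FPKM values are not counts, so log2(FPKM + 1) was tested, and fold changes on this scale understate those of low genes. Whole fragments were recovered from the FPKM steps with the mean annotated transcript length: 99.5% to 99.6% of values worth 1 to 20 fragments were whole within 0.05. Genes whose 6 Col-0 values averaged 1 FPKM or more were fitted in limma 3.58.1 under R 4.3.3 (lmFit, eBayes with trend) over all 12 libraries, with 4 groups of 3 as 1 factor. P-values are two-sided, adjusted by Benjamini-Hochberg over 17388 genes, and called under 0.05. Data were simulated for Col-0 at 18 h against 9 h over 17486 genes, with 99 genes changed 2-fold and 100 changed 4-fold. Of these, 75.8% and 100.0% were recovered, and 9.79% of calls were false. Far fewer genes were changed than were called in the data. Every gene had the same spread setting and no library was set apart, so these rates need not hold for the data. No replicate pair matched within sampling noise (chi-square per gene 4.60 to 21.5). Names, coordinates and sequences are from RefSeq TAIR10.1, in which 32548 identifiers were found. Named genes were the 8 largest rises and 8 largest falls with separate groups and at least 5 FPKM, up to 3 called members per list, all clock genes, 4 differences per direction, and a fixed list of 16. Many others were named after their values were seen, among them further starch breakdown, light signalling and antenna genes. Members, lists and tests were chosen with earlier results of these data known. Alternatives were another pseudocount, filters, scalings, voom on recovered fragments, the 6 libraries alone, a replicate block, and leaving out each replicate. Intervals cover counting error only.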

Additional observations from a re-analysis of the deposited data

Results flagged for a closer look

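These 23 genes changed differently with time in Col-0 and tpt-2, by the interaction in limma at an adjusted p under 0.05, among the genes named by the rule. The number of genes called this way depended on single libraries, and whether each of these kept its call is not given. Values are the log2 fold change of 18 h over 9 h in tpt-2 minus that in Col-0. It was higher in tpt-2 for DFR (3.04), LDOX (2.72), AT4G14090 (2.39), F3'H (2.35) and PAP1 (2.02) of the anthocyanin pathway, for the starch genes GBSS1 (1.73), SBE2.1 (0.60) and BAM3 (1.51), and for AT3G47342 (2.93), NIA2 (0.75) and GPT2 (2.11). It was lower in tpt-2 for the clock genes RVE1 (-0.998), RVE2 (-0.64), ELF3 (-0.48) and ZTL (-0.42), and for GSTF5 (-2.13), DRM2 (-2.50), STP14 (-2.46), MES6 (-2.23), CPC (-1.21), UGP2 (-0.64), TPS9 (-1.18) and GLN1;2 (-0.83). BAM3 and GPT2 were not called in Col-0 alone (adjusted p = 0.765 and 0.846). In tpt-2, BAM3 stood at 166, 164 and 224 FPKM at 9 h and 540.5, 547 and 402 FPKM at 18 h, and GPT2 at 2.15, 1.38 and 2.16 FPKM at 9 h and 18.5, 10.3 and 9.57 FPKM at 18 h.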

How the results depend on the processing

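The 5063 genes called in Col-0 became 4524 to 5275 under other pseudocounts, filters, scalings and models, and 3734 to 4861 with 1 Col-0 library left out. The 769 genes called and changed at least 2-fold became 592 to 1033, and 729 to 928. The 837 genes whose time effect differed between genotypes became 273 to 1188 with 1 of the 12 libraries left out, and the cause was not tested. Of 110 called genes named by the rule, 20 lost the call under at least 1 alternative and 0 reversed. Same-numbered Col-0 libraries deviated together with r of 0.0956 to 0.139, and 6 of 6 correlated best with their own number, a hint from the data only, since r was as low as -0.118 in tpt-2 and no label ties the numbers. With the replicate number as a block, 4554 genes were called in Col-0, 762 at least 2-fold, and 395 in the difference. With only the 6 Col-0 libraries and the block, added after the data were seen, 4583 were called. In all called genes, whatever the size of change, the evening element stood in 6.94% of those that fell and 1.68% of those that rose. In the 250 bases before the start alone, it stood in 11.9% of genes that fell at least 2-fold against 2.56% of all tested, and the telo-box in 4.46% against 3.85%. Depth limits genes near 3 fragments, as LHY, PRR9 and FT are in some libraries.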

Other observations

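Changed genes often lay next to each other. Of 432 nuclear genes that rose at least 2-fold, 50 (11.6%) had an adjacent annotated gene that also rose at least 2-fold, against 2.86% of all tested genes with such a neighbour. For 336 genes that fell at least 2-fold the shares were 8.63% and 2.42%. Of 26 adjacent pairs that rose, 19 lay on the same strand, as did 10 of 15 that fell. The same-strand share over all adjacent genes was not counted, and some of these pairs overlap, such as AT3G24460 and AT3G24463. Some are copies, such as the antenna genes LHCB1.1, LHCB1.2 and LHCB1.3 in a row on chromosome 1 and the cold genes COR47 and ERD10. GSTF6 and GSTF5 are neighbours as well, and GSTF6, at a mean of 276 FPKM at 9 h, reached 1537 at 18 h. DFR and IPK1, an inositol polyphosphate kinase gene, both rose, as did CHI and ABCG18, a transporter gene (log2 fold change 2.08). The part of shared reads or read-through in such pairs was not tested.

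Further large changes outside the lists were chosen after their values were seen. CSLA01, a cellulose synthase-like gene, stood at 13.3, 9.36 and 69.97 FPKM at 9 h and 184, 143 and 162 FPKM at 18 h (log2 fold change 2.90, adjusted p = 0.00314). Its highest 9 h value was in replicate 3, without which it rose more (log2 fold change 3.74, adjusted p = 4.10e-05). SNRK2-8, a stress kinase gene, stood at 4.71, 2.87 and 4.05 FPKM at 9 h and 28.4, 26.9 and 23.97 FPKM at 18 h (log2 fold change 2.51, adjusted p = 1.35e-06). MIR828, the precursor of a microRNA that targets anthocyanin MYB factors, was at 0.819, 0 and 0.756 FPKM at 9 h and 6.52, 6.19 and 6.34 FPKM at 18 h (log2 fold change 2.32, adjusted p = 9.34e-05), with 2, 0 and 2 fragments at 9 h, and the mature form was not measured. CCR1 (AT4G39260), a glycine-rich relative of GRP7, fell with it (log2 fold change -2.05), and COL5, a CONSTANS-like factor gene, fell by 2.49. Genes that rose or fell at least 2-fold had median transcript lengths of 1.53 and 1.54 kb, against 1.66 kb for all tested genes.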
